A study of Mus musculus with 3 samples.

Results

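Prm1 and Gfap are 2 of the 27998 genes counted in single cells of mouse dorsal cortex. They were chosen by symbol, because Prm1 had stood out in 1 of the 3 libraries, and their UMI counts were compared over cell classes and genotypes. That Prm1 was high in that library, and the classes in which it was found, are therefore a description. The hGFAP-Cre_MAP2K1/2-dcko library came from pups with Cre under the human GFAP promoter and deletion of Map2k1 and Map2k2, which encode the ERK kinases MEK1 and MEK2. The EMX-Cre_MAP2K1/2-dcko library, called Emx1-Cre below, came from pups with Cre under Emx1, a gene of dorsal cortical progenitors, and the same deletion. The control library came from pups with floxed Map2k1 and Map2k2, labelled wild type, for which no Cre is named. All 3 genotypes had FlashTag, a dye taken up by cells at the ventricle, injected at embryonic day 18, and all were taken at postnatal day 2. In all 3, tdTomato-positive cells were sorted. The labels do not name the allele that carries tdTomato, so which cells the sort admitted in each genotype is not known. There was 1 library per genotype, and whether pups were pooled is not given, so no difference between genotypes has a replicate check.

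Prm1 encodes protamine 1, the small arginine-rich protein that takes the place of histones when the sperm nucleus is packed, and its native gene is active in spermatids. The short intron and polyadenylation signal at the end of Prm1 have also been used as a ready-made tail for mouse transgenes, so that a 3' library can count a transgene's messages under the name Prm1. Gfap encodes glial fibrillary acidic protein, an intermediate filament of astrocytes and of some adult neural stem cells. Human GFAP promoter fragments in mice are known to be active in radial glia before birth, when native mouse Gfap is low there. The labels do not describe the construct, and the files have no row for Cre or tdTomato, so whether the Prm1 UMIs came from a transgene was not tested.

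Both genes lie on the minus strand. On GRCm38, the build called mm10, Prm1 (ENSMUSG00000022501) lies on chromosome 16 from 10796326 to 10805839. Its shorter transcript has 2 exons, from 10796626 to 10796886 and from 10796326 to 10796533, and the second exon is shared with a longer transcript that starts upstream. Gfap (ENSMUSG00000020932) lies on chromosome 11 from 102887336 to 102900912, and its main transcript has 9 exons. Counts taken at the 3' end of a transcript do not show at which promoter it began, so native RefSeq starts are shown here to set the genes apart. The promoters (GRCm38.p6) are chr11:102897151-102897450 and chr16:10796774-10797073. They cover 300 bases, from 250 before the RefSeq start to 50 after it. The RefSeq starts are not those of the transcripts above. The main Gfap transcript begins at 102897131, outside its window, and the shorter Prm1 transcript at 10796886, inside its window. Capitals mark matches, on either strand, to TTCNNNGAA, a motif of STAT factors, and to TGACNTCA, a motif of CREB and CREM factors. The motifs were picked after the sequences had been read.
Gfap promoter: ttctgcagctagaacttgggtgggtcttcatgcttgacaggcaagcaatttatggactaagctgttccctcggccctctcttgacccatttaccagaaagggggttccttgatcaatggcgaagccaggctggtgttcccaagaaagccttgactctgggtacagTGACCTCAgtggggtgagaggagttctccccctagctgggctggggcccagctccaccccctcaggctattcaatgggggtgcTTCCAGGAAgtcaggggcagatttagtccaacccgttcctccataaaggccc
Prm1 promoter: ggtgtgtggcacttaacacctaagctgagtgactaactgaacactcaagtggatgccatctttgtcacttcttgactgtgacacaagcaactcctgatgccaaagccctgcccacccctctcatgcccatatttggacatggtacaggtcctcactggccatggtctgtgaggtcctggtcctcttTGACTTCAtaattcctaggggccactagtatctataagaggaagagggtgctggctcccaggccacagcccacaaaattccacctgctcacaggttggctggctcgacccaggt
The Gfap window held both motifs, TTCCAGGAA from base 249 and TGACCTCA from base 166. The Prm1 window held TGACTTCA from base 187, and the letters TTCNNNGAA were not in it. That match, at 10796880 to 10796887, overlaps the first bases of the shorter Prm1 transcript. In the same table of 32851 promoters, TTCNNNGAA was in 8.30% and TGACNTCA in 8.83%. CREM is the member of its family known for its role in spermatids, and STAT3 acts in astrocytes downstream of cytokine receptors. A match in letters is not a bound site.

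The hGFAP-Cre library held 13139 barcodes and 89917586 UMIs, the Emx1-Cre library 13214 and 84016524, and the control 11886 and 85480826. After filtering, 12065, 12173 and 9537 cells remained in that order, with medians of 5321, 4984 and 6427 UMIs. Between 43 and 54 barcodes were shared by each pair of libraries. Both mutant libraries had Ddx3y at 37.5 CPM or more and the control had none, while Xist was at 1585 CPM in the control and under 1 CPM in the mutants, so sex and genotype cannot be told apart here. Cells were clustered without Prm1 and Gfap among the variable genes. Of 30 clusters, 27 could be named by their markers, in 11 classes, and all class names end in "-like" to say so. The astroglia-like class holds astrocytes and radial glia together.

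Prm1 was found in 1 library. The hGFAP-Cre library had 52388 Prm1 UMIs in 5229 of 13139 barcodes, or 39.8% (95% exact interval 39.0 to 40.6), at 582.6 CPM of all UMIs and with up to 79 UMIs in a cell. The Emx1-Cre library had 3 Prm1 UMIs in 3 cells. The control had 0 in 85480826 UMIs, which allows up to 0.0351 CPM. Of the 3 Emx1-Cre barcodes, 2 were also among the barcodes of the hGFAP-Cre library. Native Gfap was counted in all 3, with 8221 UMIs in 2618 barcodes of the hGFAP-Cre library, 4338 in 1135 Emx1-Cre barcodes and 4581 in 1545 control barcodes. These were levels of 91.4, 51.6 and 53.6 CPM in that order, over cells of all classes together.

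The genes beside Prm1 on chromosome 16 did not share its counts. Prm2, the second protamine gene, had 2 UMIs in the hGFAP-Cre library, 13 in Emx1-Cre and 0 in control cells. Prm3 had 0, 3 and 0 UMIs in the same order, and Tnp2, for a transition protein that precedes the protamines, had 0 in all 3. Socs1, an inhibitor of cytokine signalling on the other side of Tnp2, had 735 UMIs in the hGFAP-Cre library, 489 in Emx1-Cre and 438 in control cells. Rmi2, a genome stability gene past the long Prm1 transcript, had 101, 117 and 264 UMIs in that order. Of 12 spermatid genes, Prm2, Prm3 and Tnp2 among them, 6 were at 0 in the hGFAP-Cre library, 4 in Emx1-Cre and 9 in control cells, and the highest had 26 UMIs (Oaz3), 21 UMIs (Oaz3) and 58 UMIs (Spem1). With 52388 UMIs, Prm1 thus stood far from every other spermatid gene counted in the hGFAP-Cre library.

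Across the classes of the hGFAP-Cre library, Prm1 formed a descending series that began with glia. It was found in 2203 of 2293 astroglia-like cells, or 96.1% (95.2 to 96.8), at 1822 CPM (1800 to 1844). In multipotent progenitor-like cells, which had raised Egfr, Olig2 and Gsx2, it was found in 117 of 166, or 70.5% (62.9 to 77.3), at 590.4 CPM. Ependymal-like cells, the ciliated lineage of the ventricle wall, had Prm1 in 228 of 395, or 57.7% (52.7 to 62.6), at 217.7 CPM. The intervals of the multipotent progenitor-like and ependymal-like shares lie just apart, and those of their levels further apart, at 549.7 to 633.4 and 205.6 to 230.3 CPM. Ependymal-like cells were the deepest, with a median of 12542 UMIs against 5396 in astroglia-like cells. At 2500 UMIs per cell Prm1 was in 93.0% of astroglia-like, 60.2% of multipotent progenitor-like and 32.2% (27.6 to 37.0) of ependymal-like cells.

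Lower in the series came precursors and neurons. Oligodendrocyte precursor-like cells had Prm1 in 84 of 258, or 32.6% (26.9 to 38.6), at 95.0 CPM (81.7 to 109.9). Excitatory intermediate progenitor-like cells, precursors of cortical projection neurons, had it in 719 of 3026, or 23.8% (22.3 to 25.3), at 178.5 CPM (172.7 to 184.6). So with all UMIs the share was higher in the oligodendrocyte precursor-like class and the level in the intermediate progenitor-like class. Median depths of these classes were 6959.5 and 5564.5 UMIs in that order. At 2500 UMIs per cell their Prm1 shares were 17.4% (13.0 to 22.6) and 14.4% (13.2 to 15.7), which overlap. Interneuron lineage-like cells had Prm1 in 45 of 558, or 8.06% (5.94 to 10.6), and excitatory neuron-like cells in 258 of 3756, or 6.87% (6.08 to 7.73). These neuronal shares overlap, as do their levels of 29.8 CPM (23.9 to 36.7) and 25.2 CPM (23.0 to 27.6).

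Cells that arise outside the neural tube, or from its margins, set the background. Microglia-like cells, which come from the yolk sac, had Prm1 in 10 of 303, or 3.30% (1.59 to 5.99), at 13.7 CPM and a median depth of 6605 UMIs. Cajal-Retzius-like cells had it in 13 of 374, or 3.48%, at 4.70 CPM. Mural-like cells had it in 2 of 82, at 35.5 CPM (18.9 to 60.7), with 12 of 13 UMIs in 1 cell. Endothelial-like cells had Prm1 in 6 of 53, or 11.3% with a wide interval of 4.27 to 23.0, and 3 of these 6 held 5 to 9 UMIs. Their level was 66.7 CPM (44.6 to 95.7), above both neuronal classes and overlapping the oligodendrocyte precursor-like one. By level, the neuronal classes were therefore not above every background class. Astroglia-like cells were 6.61 higher than microglia-like cells on the log2(CPM + 5) scale. The microglia-like level of Prm1 was 0.750% of the astroglia-like level, inside the range of 0.163% to 2.07% over 14 astroglia markers there, which is how much of those markers microglia-like cells also carried.

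Set against microglia-like cells of the same library, 6 of 10 other classes had a Prm1 share with an interval above theirs, namely astroglia, multipotent progenitor, ependymal, oligodendrocyte precursor, excitatory intermediate progenitor and excitatory neuron. The last passed narrowly, with a lower limit of 6.08% against an upper limit of 5.99% in microglia-like cells. Against endothelial-like cells, of which there were 53, 4 of 10 classes passed for Prm1 and 2 for Gfap, and both the intermediate progenitor and the excitatory neuron classes dropped out for Prm1. Against microglia-like cells, 3 of 10 classes passed for Gfap in that library, namely astroglia, ependymal and excitatory intermediate progenitor. Gfap passed in 3 of 10 classes of the Emx1-Cre library too, and in 4 of 10 of the control, where the multipotent progenitor-like class joined. At 2500 UMIs for every cell, the number of classes was 5 for Prm1 and 3 for Gfap in the hGFAP-Cre library. Prm1 was counted in more molecules than Gfap, so a class can pass for it more readily, and the ratio of the 2 counts was therefore taken class by class.

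**Figure D1:**
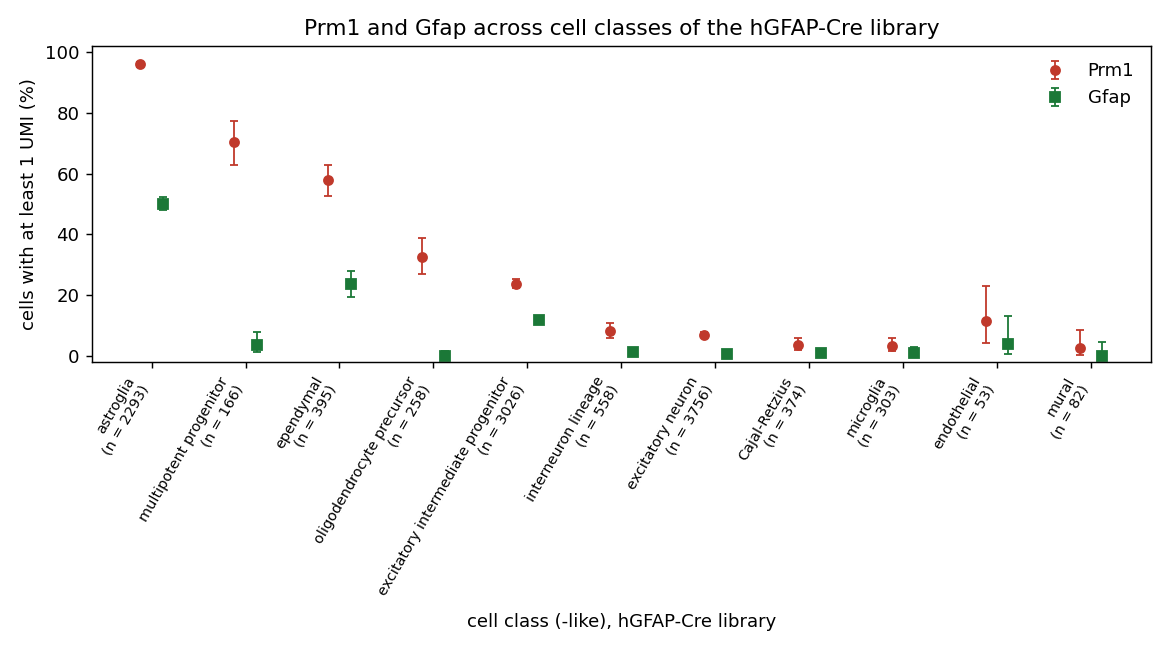
Share of cells with at least 1 UMI of Prm1 (red circles) or Gfap (green squares) in each cell class of the hGFAP-Cre library, with 95% exact intervals and the number of cells. Prm1 runs down from 96.1% of astroglia-like cells, and Gfap is near 0 in the multipotent progenitor and oligodendrocyte precursor classes where Prm1 is at 70.5% and 32.6%.

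The ratio of Prm1 to Gfap UMIs split the classes. It was 7.09 in astroglia-like cells (6.85 to 7.34), 7.36 in ependymal-like cells (6.25 to 8.71) and 5.44 in excitatory intermediate progenitor-like cells (4.996 to 5.93). The last of these intervals lies below that of astroglia-like cells. Native Gfap and Prm1 were at 11.5% and 11.95% of their astroglia-like levels in ependymal-like cells, and at 12.8% and 9.80% in intermediate progenitor-like cells. In multipotent progenitor-like cells the ratio was 86.6 (45.4 to 190), from 779 Prm1 UMIs and 9 Gfap UMIs. Oligodendrocyte precursor-like cells had 181 Prm1 UMIs and 0 Gfap UMIs, a ratio of at least 60.3 if the limit of 3 counts over the class is used. Gfap was in 0 of these 258 cells, which allows up to 1.16% of cells with a UMI by the limit of 3 counts and 1.42% by the exact interval. In excitatory neuron-like cells the ratio was 20 (13.3 to 31.5), from 480 and 24 UMIs. It was 12.6 (5.85 to 32.2) in interneuron lineage-like cells, from 88 and 7 UMIs. Microglia-like cells, taken as background, had a ratio of 10 (3.11 to 51.2), from 30 and 3 UMIs. That wide interval covers those of both neuronal classes, so the ratio does not set them apart from background.

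**Figure D2:**
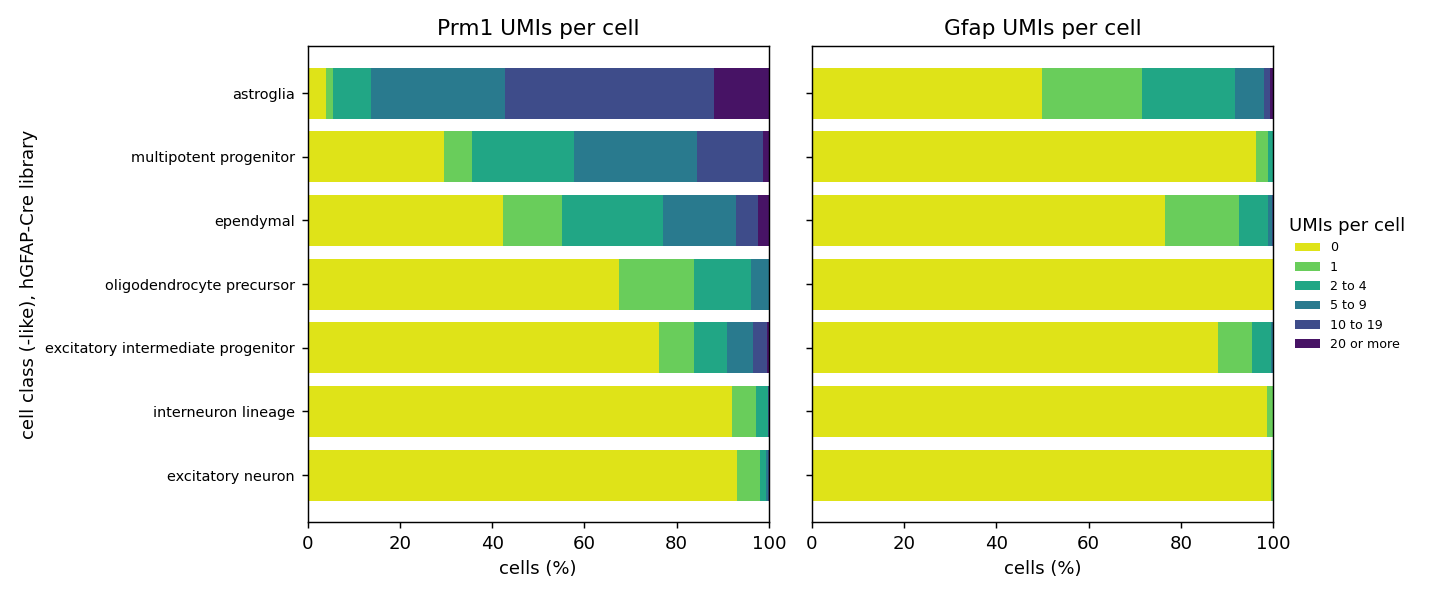
Share of cells (horizontal axis, percent) by the number of UMIs of Prm1 (left) and Gfap (right) in 7 classes of the hGFAP-Cre library. Prm1 reached 10 to 19 UMIs in 45.4% of astroglia-like cells, while 49.9% of them had no Gfap UMI.

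Most glia with Prm1 held several molecules of it. Of astroglia-like cells, 45.4% held 10 to 19 Prm1 UMIs, 11.9% held 20 or more, and 3.92% held none. The median of cells with Prm1 was 11 UMIs in the astroglia-like class and 5 in the multipotent progenitor-like class. Excitatory intermediate progenitor-like cells were mixed, since 76.2% held none but 3.11% held 10 to 19 and 0.430% held 20 or more. In excitatory neuron-like cells, 4.90% held 1 UMI and 23 of 3756 held 5 or more. Gfap was sparser, with 21.7% of astroglia-like cells at 1 UMI and 0.654% at 20 or more.

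Within classes, Prm1 followed the cluster. The clusters carry the numbers printed in the plot of Prm1 against Gfap. Among astroglia-like cells, cluster 4, with Ephx1 and Cmtm5 among its leading genes, held 2051 of the 2293 cells and had Prm1 in 99.2%, at 2069 CPM. Cluster 7, led by Has2 and A2m, had it in 70 of 84 cells, or 83.3%, and cluster 8, led by mitosis genes, in 91 of 135, or 67.4%. Cluster 9, led by Chil1 and Hopx, which held 1331 control cells and 23 hGFAP-Cre cells, had it in 8 of those 23, or 34.8% (16.4 to 57.3), with Gfap in 19 of the same 23. Of the 4 astroglia-like clusters, these 23 cells had the lowest share of Prm1 and the highest of Gfap. Clusters 7 and 8 held 506 and 503 control cells beside their hGFAP-Cre cells. Clustering used other genes of the same cells, so these contrasts are descriptions.

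Other classes were as uneven. Excitatory intermediate progenitor-like cells of cluster 13, led by histone and DNA replication genes, had Prm1 in 450 of 649, or 69.3% (65.6 to 72.9). Those of cluster 19, led by mitosis genes, had it in 40.1% of 349, those of cluster 10, led by Neurog2, in 8.82% of 737, and those of cluster 2, led by Eomes and Sstr2, in 4.96% of 1291. The order thus ran from clusters led by cell cycle genes to those led by Neurog2 or Eomes. In the ependymal-like class, cluster 17, with Mcidas and Ccno of the multiciliation programme, had Prm1 in 66.1% of 180 cells, and cluster 14, with the cilium gene Ccdc153, in 50.7% of 215. Cluster 16, a set of 117 excitatory neuron-like cells with Crym and Hs3st4, had Prm1 in 56, or 47.9% (38.5 to 57.3), and Gfap in 0. Its median depth was 13229 UMIs, and at 2500 UMIs per cell the Prm1 share was 30.8%, against 2.52% in cluster 1, the largest set of excitatory neuron-like cells.

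Of the 3 clusters that stayed unnamed, 2 were rich in both genes. Cluster 15 had Ogn, Acta2 and H19 on top but also raised Aldoc, Mlc1 and Clu. It had Prm1 in 706 of 716 hGFAP-Cre cells, or 98.6%, at 1711 CPM, and Gfap in 539, or 75.3%, at 362.7 CPM. Cluster 28, with Dlx5 and Gad2 on top beside 14 raised astroglia markers, had Prm1 in 49 of 49 cells and Gfap in 26. Cluster 29, led by the stress genes Gdf15 and Chac1, had Prm1 in 12 of 36. Unnamed cells held 26.1% of the Prm1 UMIs of the kept cells, and astroglia-like cells 59.6%.

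**Figure D3:**
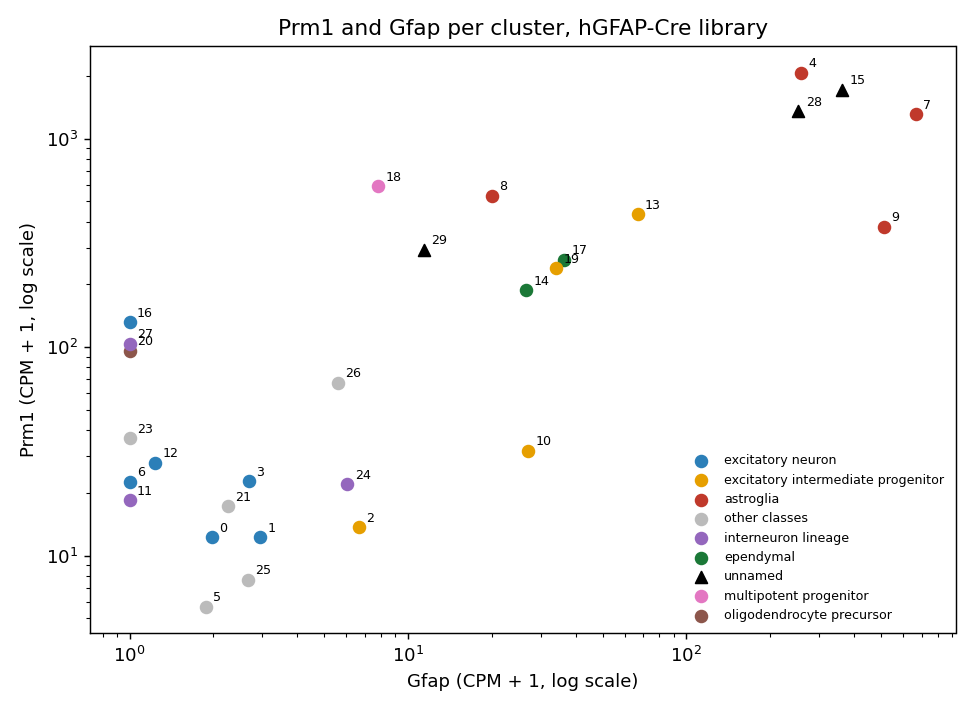
Prm1 (vertical axis) against Gfap (horizontal axis), each as CPM + 1 of the summed UMIs on a log scale, for every cluster with at least 20 cells in the hGFAP-Cre library; numbers are cluster numbers and colours are classes. Clusters 16, 20 and 27 stand at the left edge, with no Gfap UMI and Prm1 near 100 CPM, and cluster 9 stands to the right of the other astroglia clusters' trend, with much Gfap for its Prm1.

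Over whole classes, Prm1 was less frequent in dividing than in other astroglia-like cells and more frequent in dividing than in other intermediate progenitor-like and interneuron lineage-like cells. Mki67 and Top2a mark dividing cells, and cells in which either was counted were compared with cells lacking both. In the astroglia-like class Prm1 was in 144 of 191 dividing cells, or 75.4% (68.7 to 81.3), against 98.0% (97.3 to 98.5) of 2102 cells without these marks. In excitatory intermediate progenitor-like cells it was in 49.4% (45.8 to 53.0) of 771 dividing cells, against 14.99% (13.5 to 16.5) of 2255 others. In the interneuron lineage-like class it was in 20 of 46 dividing cells, or 43.5% (28.9 to 58.9), against 4.88% (3.18 to 7.12) of 512 others. Dividing cells were deeper, with medians of 9179 against 4996 UMIs in intermediate progenitor-like cells. At 2500 UMIs per cell their Prm1 shares were 28.3% (25.1 to 31.6) and 9.71% (8.52 to 11.01), still apart, and in the interneuron lineage-like class 17.4% (7.82 to 31.4) and 2.93% (1.65 to 4.79).

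The class contrasts pool clusters that differ in both measures. In cluster 13, which holds 450 of the 719 intermediate progenitor-like cells with Prm1, Mki67 or Top2a was counted in 54.4% of cells with Prm1 and 76.9% of those without, the reverse of the order over the class. In cluster 19 the same shares were 91.4% and 85.6%, and in the dividing astroglia-like cluster 8 they were 91.2% and 95.5%.

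In the other precursor classes the intervals overlapped. Oligodendrocyte precursor-like cells had Prm1 in 43.5% (31.0 to 56.7) of 62 dividing cells and 29.1% (22.8 to 36.0) of 196 others, and multipotent progenitor-like cells in 63.6% of 33 and 72.2% of 133. Gfap was likewise lower in dividing astroglia-like cells, with 20.9% against 52.8% of the others. In intermediate progenitor-like cells at 2500 UMIs it was in 6.49% (4.85 to 8.46) of dividing cells and 4.97% (4.11 to 5.95) of the others, which overlap. Microglia-like cells, taken as background, had Prm1 in 2 of 42 dividing cells and 8 of 261 others.

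**Figure D4:**
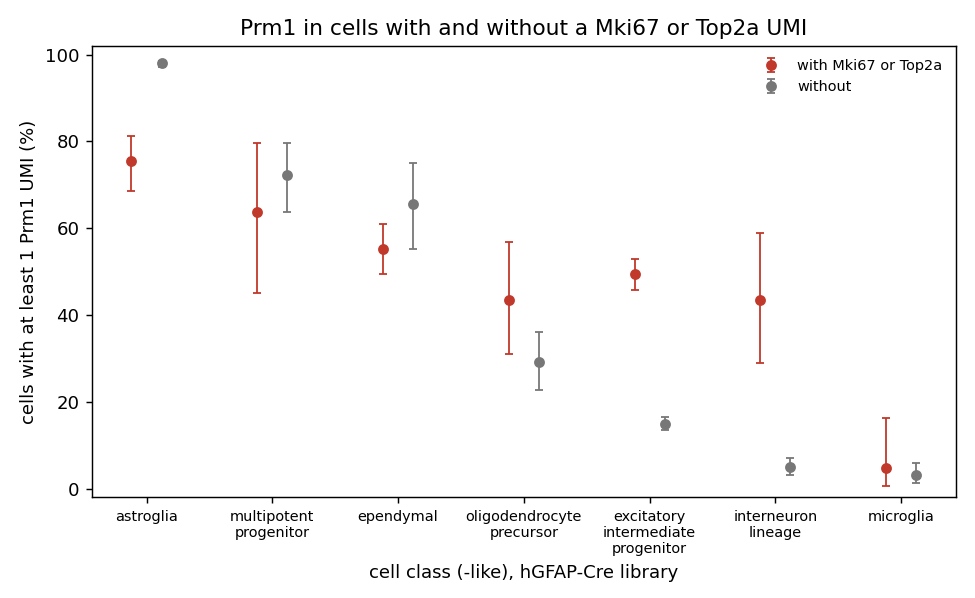
Share of hGFAP-Cre cells with at least 1 Prm1 UMI, with 95% exact intervals, for cells in which Mki67 or Top2a was counted (red) and for the others (grey), in 7 classes. The red point is the lower one in astroglia-like cells, at 75.4% against 98.0%, and the higher one in excitatory intermediate progenitor-like cells, at 49.4% against 14.99%.

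Whether the 2 genes met in the same cells differed by class. In astroglia-like cells Gfap was in 50.6% (48.5 to 52.7) of 2203 cells with Prm1 and 38.9% (28.8 to 49.7) of 90 without, and at 2500 UMIs per cell in 33.8% and 31.1%, with overlapping intervals. In intermediate progenitor-like cells at 2500 UMIs, Gfap was in 17.6% (14.2 to 21.5) of cells with Prm1 and 3.28% (2.63 to 4.04) of those without. With all UMIs these shares were 31.0% (27.6 to 34.5) and 5.90% (4.97 to 6.94). The class pools clusters, and in cluster 13 alone the shares at 2500 UMIs were closer, at 20.3% (15.8 to 25.3) and 9.63% (6.76 to 13.2). They lay apart in cluster 19 too, and their intervals overlapped in clusters 2 and 10. In ependymal-like cells Gfap was in 36.0% (29.7 to 42.6) of cells with Prm1 and 6.59% (3.33 to 11.5) of those without, with median depths of 12733 and 12368 UMIs. At 2500 UMIs the shares there were 10.2% (5.56 to 16.9) and 5.22% (2.89 to 8.61), which overlap. Multipotent progenitor-like cells had the other order, with Gfap in 1 of 117 cells with Prm1 and 5 of 49 without, and overlapping intervals. Of astroglia-like cells with Gfap, 97.0% also had Prm1, and 35 of 1149 did not. Among the 2293 astroglia-like cells, thinned counts of the 2 genes were hardly correlated, with Pearson's r of 0.050 and Spearman's rho of 0.098, as a description of cells of 1 library. Gfap was in 39.0% of the cells with 6 to 20 thinned Prm1 UMIs, in 31.7% with 3 to 5, in 27.1% with 1 to 2 and in 31.1% with none.

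Native Gfap was found mainly in the same classes of the 3 genotypes. In astroglia-like cells it was in 50.1% (48.0 to 52.2) of 2293 hGFAP-Cre cells, 21.0% (19.2 to 22.9) of 1888 Emx1-Cre cells and 50.7% (48.6 to 52.7) of 2355 control cells. Median depths in that class were 5396, 7666 and 8385 UMIs, and at 2500 UMIs per cell the shares were 33.6%, 13.2% and 29.4%. Mki67 or Top2a was counted in 191 of these hGFAP-Cre, 921 of the Emx1-Cre and 648 of the control cells. Among the cells without these marks, Gfap was in 35.6% (33.6 to 37.7) of hGFAP-Cre, 17.8% (15.4 to 20.3) of Emx1-Cre and 37.3% (35.0 to 39.7) of control cells at 2500 UMIs, so the Emx1-Cre share was the lowest there too. Ependymal-like cells had Gfap in 23.5%, 17.3% and 25.8% in the same order, the last from 31 cells, and excitatory intermediate progenitor-like cells in 11.9%, 10.1% and 10.7%, so the libraries differed less there. Oligodendrocyte precursor-like cells were near background, with 0 of 258 hGFAP-Cre, 4 of 277 Emx1-Cre and 1 of 66 control cells. Microglia-like cells had Gfap in 3 of 303, 3 of 233 and 2 of 242. In multipotent progenitor-like cells Gfap was in 6 of 166 hGFAP-Cre cells, or 3.61% (1.34 to 7.70), at 6.82 CPM, against 70 of 526 control cells, or 13.3% (10.5 to 16.5), at 24.3 CPM. The Emx1-Cre library had 12 cells of that class, none with Gfap. At 2500 UMIs per cell the shares were 1.20% in hGFAP-Cre and 5.18% in control cells.

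**Figure D5:**
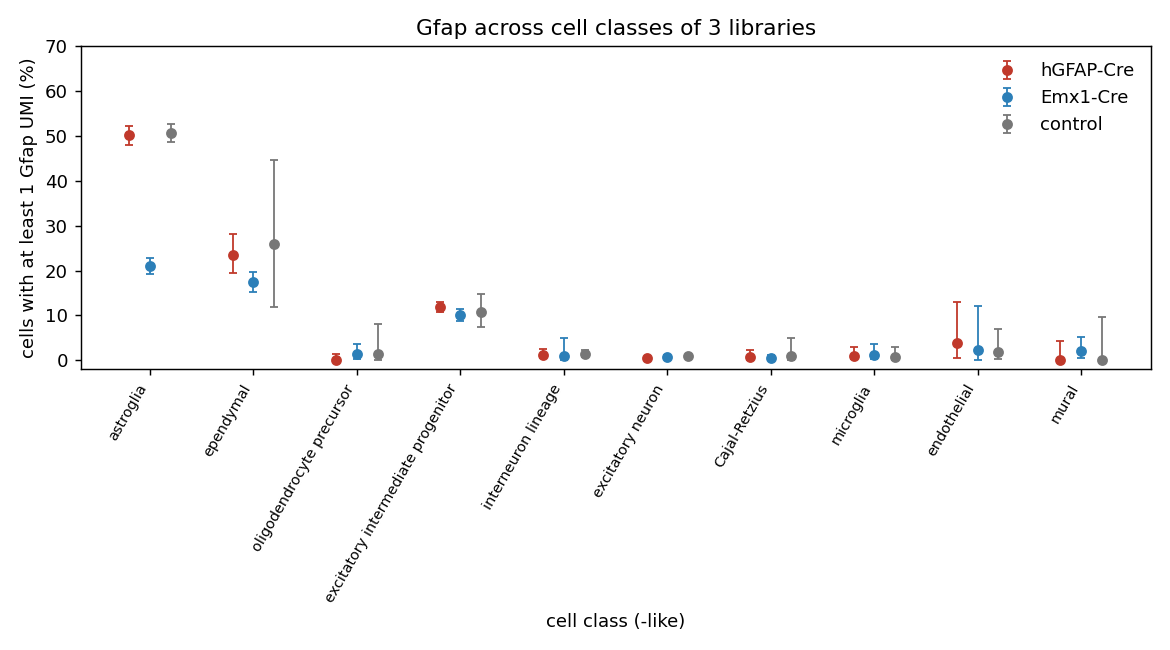
Share of cells with at least 1 Gfap UMI, with 95% exact intervals, in hGFAP-Cre (red), Emx1-Cre (blue) and control (grey) cells of 10 classes, each of 20 cells or more in all 3. In the astroglia-like class the Emx1-Cre share of 21.0% lies below the hGFAP-Cre share of 50.1% and the control share of 50.7%. These last shares overlap, with depth not made equal. The 3 libraries lie close to 0 together in neurons and microglia.

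The astroglia-like Gfap level was 257.0 CPM (248.8 to 265.4) in the hGFAP-Cre library and 162.6 CPM (157.5 to 167.9) in the control, a log2(CPM + 5) difference of 0.64 with near-equal shares of cells. A single cell of cluster 7 held 198 of the 3717 Gfap UMIs of the hGFAP-Cre class. Without it the difference over the whole class was 0.57, just under the 1.5-fold used as a call. With mitochondrial counts held under 5% it was 0.24. In the Emx1-Cre library the level was 110.6 CPM (105.5 to 116.0), a difference of -0.54 from the control, and the sign was not stable. With doublets kept the difference was 0.11, with Prm1 and Gfap among the variable genes 0.19, and with the unnamed astroglia marker clusters joined to the class 0.019.

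The classes of the 3 libraries lay in different clusters, so Gfap was also taken cluster by cluster. Of 2293 hGFAP-Cre astroglia-like cells, 2051 were in cluster 4, where the control had 15 cells, and of 2355 control cells 1331 were in cluster 9, where the Emx1-Cre library had none. In cluster 7, Gfap was at 668.4 CPM in 84 hGFAP-Cre cells (448.4 without the cell above), 188.7 in 1057 Emx1-Cre cells and 235.9 in 506 control cells. In the dividing cluster 8 it was at 19.05 CPM in hGFAP-Cre, 35.5 in Emx1-Cre and 14.8 in control cells. In cluster 9 it was at 512.4 CPM in 23 hGFAP-Cre cells and 242.9 CPM in the control. The highest Gfap of all was in the unnamed cluster 15 of the Emx1-Cre library, with a UMI in 98 of 109 cells and 1458 CPM (1367 to 1553), against 362.7 CPM in its 716 hGFAP-Cre cells.

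Genes of the intermediate filament family were split in direction. Of 6 members at 10 CPM or more in astroglia-like cells, lamins and Gfap itself included, 3 were at least 1.5-fold higher and 3 lower in hGFAP-Cre than in control cells, and without Gfap 2 of 5 were higher and 3 lower. Over all 8971 genes tested in that comparison, 10.6% were higher and 14.4% lower, with a median log2 difference of -0.09. Vim, for vimentin, the filament of radial glia, was at 2334 against 1430 CPM (log2 0.71), and Nes, for nestin, was at 101.2 against 243.9 CPM (log2 -1.23). Lmnb1, for lamin B1, was at 73.6 against 225.0 CPM (log2 -1.55). Lmna, another lamin gene and named after its values were seen, went the other way, at 84.8 against 21.0 CPM (log2 1.79). Mki67 or Top2a was counted in 191 of 2293 hGFAP-Cre, 921 of 1888 Emx1-Cre and 648 of 2355 control cells of this class. The part of dividing cells in this list and the next ones was not tested. In Emx1-Cre cells 0 of 6 were higher and 1 was lower, which was Nes at 101.7 CPM (log2 -1.22). Over all 8764 genes of that comparison 7.22% were higher and 29.6% lower, with a median of -0.31.

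The known regulators of the Gfap promoter were mostly lower or little changed. Of 24 measured, 2 were higher and 8 lower in hGFAP-Cre than in control astroglia-like cells, with a median of -0.30. In Emx1-Cre cells 5 were higher and 15 lower, with a median of -0.78. Over all genes tested 10.6% were higher and 14.4% lower in hGFAP-Cre cells, and 7.22% and 29.6% in Emx1-Cre cells. The medians over all genes were -0.09 and -0.31. Nfia, which opens the gliogenic programme, was at 565.5 CPM in hGFAP-Cre, 379.0 in Emx1-Cre and 851.6 in control cells. Nfib, of the same family, was at 434.5, 410.8 and 886.4 CPM in that order. Hes5, a NOTCH effector, was at 540.9, 536.4 and 967.7 CPM. Id3, an inhibitor of bHLH factors and a BMP target, went the other way, with 2095 CPM in hGFAP-Cre and 3220 in Emx1-Cre against 871.2 in control cells (log2 1.26 and 1.88).

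Markers of mature and reactive astrocytes were split as well. Of 15 tested, 3 were higher and 4 lower in hGFAP-Cre than in control cells, beside 10.6% and 14.4% over all genes. Of 16 tested, 3 were higher and 8 lower in Emx1-Cre cells, beside 7.22% and 29.6% over all genes. Apoe, for the main brain lipoprotein, was at 6817 CPM in hGFAP-Cre, 3476 in Emx1-Cre and 6367 in control cells, and Aldoc, a glycolytic enzyme of astrocytes, at 1486, 529.7 and 1225 CPM. Slc1a3, the glutamate transporter GLAST, was at 1370, 1359 and 1832 CPM, and Sparcl1, for a synapse-promoting protein, at 676.8, 809.7 and 991.1 CPM. Of 5 genes around Gfap on chromosome 11 at 10 CPM or more, 0 were higher and 2 lower in hGFAP-Cre cells. In Emx1-Cre cells 0 were higher and 4 lower, beside the same shares over all genes. Ccdc103, a cilium gene beside Gfap and named after its values were seen, lay just under that minimum, at 9.13 CPM (7.64 to 10.8) in hGFAP-Cre, 2.35 in Emx1-Cre and 2.14 CPM (1.58 to 2.81) in control astroglia-like cells. Its log2 difference was 0.99 in hGFAP-Cre cells, so with every gene counted 1 of 9 was higher there. Over all barcodes Ccdc103 had 944 UMIs in the hGFAP-Cre library, 1692 in Emx1-Cre and 125 in the control, and these libraries held 395, 1194 and 31 ependymal-like cells. Dcakd, a kinase gene there, was at 46.5, 36.7 and 90.1 CPM. Of the genes around Prm1 and the spermatid genes, 2 were measured in the hGFAP-Cre comparison and 1 in the Emx1-Cre comparison, with none past 1.5-fold, and Dexi was at 50.2, 38.7 and 43.1 CPM.

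The targeted genes and the other Cre driver were read in the same cells. Map2k1 was at 23.7 CPM in hGFAP-Cre, 15.2 in Emx1-Cre and 20.5 in control astroglia-like cells, and Map2k2 at 227.1, 177.3 and 186.7 CPM. Neither passed 1.5-fold, and a 3' count outside the deleted exons does not check the deletion. Emx1 itself was at 72.9 CPM in hGFAP-Cre and 40.5 in control astroglia-like cells, and at 0.763 CPM (0.394 to 1.33) in Emx1-Cre ones, from 12 UMIs. In ependymal-like cells of the same Emx1-Cre library Emx1 was at 90.3 CPM, so it was counted there in other classes. Emx1 thus marks a gap between the astroglia-like cells of the Emx1-Cre library and those of the control with which their Gfap was compared, and its part in the Gfap difference was not tested.

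Over the 11 classes of the hGFAP-Cre library, the genes most like Prm1 among 11331 were Prdx6 (Pearson's r 0.97 on log2(CPM + 5)), E2f5 (0.96), Slc15a2 (0.95), Slc1a3 (0.94) and Creb5 (0.93). Prdx6 encodes a peroxiredoxin, Slc15a2 a peptide transporter of astroglia and E2f5 a cell cycle factor. The genes most like Gfap were Dct (0.99), Veph1 (0.98), Inadl (0.97), Cbs (0.96) and Plagl1 (0.96). Dct encodes an enzyme of melanin synthesis and Cbs cystathionine beta-synthase. Gfap stood at rank 116 for Prm1, with r of 0.81 and a Spearman's rho of 0.68, and Prm1 at rank 114 for Gfap. All 10 genes had their highest level in astroglia-like cells. The next class for E2f5, Slc1a3 and Creb5 was multipotent progenitor-like, as for Prm1. For Dct, Veph1 and Inadl it was excitatory intermediate progenitor-like, as for Gfap. For Prdx6 and Slc15a2 of the Prm1 set, and Cbs and Plagl1 of the Gfap set, it was ependymal-like, so the 2 sets share that class. These values describe 11 sums of 1 library each and carry no test.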

How the data were processed

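UMI counts per gene and barcode were deposited by the authors for 3 libraries, made with Cell Ranger 5.0.0 per the file headers and with mm10 per the submitters' processing notes. Whether counting used strand is not given in the sources used here; the antisense gene Gm46563 overlaps the long Prm1 transcript. Barcodes with at least 1000 genes and under 10% mitochondrial counts were kept, and doublets called by Scrublet (expected rate 10%), which were 8.14%, 7.76% and 3.57% of hGFAP-Cre, Emx1-Cre and control barcodes, were removed. Analysis used Python 3.11.15, scanpy 1.11.5, leidenalg 0.10.2 and scipy 1.17.1. Counts were log-normalised, 2000 variable genes gave 30 principal components, 15 neighbours and Leiden clusters at resolution 1, with no batch correction. Not used as variable genes were Prm1, Gfap, Map2k1 and Map2k2, ERK response and immediate early genes, haemoglobins, mitochondrial and ribosomal genes, and genes that differ by sex.

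A cluster took the class with the most raised markers (at least 2-fold over other cells and in 25% of the cluster), with at least 3, unless its 10 leading genes held more markers of another class. This naming rule was set after clusters had been seen. The members and gene lists were chosen with earlier results of these data known. Named genes were up to 4 per list with the highest astroglia-like CPM and the 5 most like each member; others named were chosen after their values were seen.

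Shares have 95% Clopper-Pearson intervals and CPM, a gene's share of the summed UMIs of a class, exact Poisson ones; both cover counting error only. A count of 0 was given a limit of 3 counts. Differences used log2(CPM + 5), genes at 10 CPM or more in either library, and calls from 1.5-fold. With 1 library per genotype there was no test. To compare depths, cells were thinned to 2500 UMIs, which left out no mutant cell and 537 control cells. List calls and likeness were tested on simulated data.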

Additional observations from a re-analysis of the deposited data

How the results depend on the processing

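Prm1 shares in the hGFAP-Cre library moved beyond their intervals under some choices. In astroglia-like cells the share was 94.9% at Leiden resolution 2, 95.2% with Prm1 and Gfap among the variable genes, 98.3% with each library clustered alone and 93.0% at 2500 UMIs. In intermediate progenitor-like cells it was 27.4% at resolution 2, 30.6% with doublets kept, 30.4% with at least 2000 genes per cell, 21.5% with both genes variable, 20.5% with libraries alone, 17.7% with cells called 1 by 1 and 14.4% at 2500 UMIs. At 2500 UMIs it was 60.2% in multipotent progenitor-like, 17.4% in oligodendrocyte precursor-like and 1.32% in microglia-like cells, the last of which was 8.87% with doublets kept. The log2 difference of astroglia-like over microglia-like cells was 4.59 with doublets kept, 5.87 with cells called 1 by 1 and 5.77 with a pseudocount of 20 CPM.

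The hGFAP-Cre astroglia-like Gfap share was 54.7% with doublets kept, 53.8% with both genes variable, 54.6% with libraries alone and with cells called 1 by 1, 33.6% at 2500 UMIs and 56.0% with astroglia marker clusters joined. Its log2 difference from the control was 0.24 with mitochondrial counts under 5%, 0.79 with both genes variable and 0.81 with those clusters joined. For the Emx1-Cre library it was -0.65 at resolution 2, -1.59 with at least 2000 genes, -0.91 under 5% mitochondrial counts, -0.94 with libraries alone and -0.021 with cells called 1 by 1. It turned to 0.11 with doublets kept, 0.19 with both genes variable and 0.019 with clusters joined. The cause was not tested. Joining those clusters and leaving out 1 cell were chosen after the data were seen. The classes above microglia-like cells numbered 4 to 7 for Prm1 and 2 to 4 for Gfap over all settings.

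No paired analysis was possible because there was 1 library for each genotype.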

Other observations

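ERK response genes were read in hGFAP-Cre cells with and without Prm1 of the same cluster. The list has 12 genes, Dusp4, Dusp6, Etv1, Etv4, Etv5, Il17rd, Spred1, Spred2, Spred3, Spry1, Spry2 and Spry4, which are transcribed when ERK is active and mostly feed back on it, and none was used in clustering. Their summed level was lower in cells with Prm1 in some clusters, of which those given were chosen after their values were seen. In the excitatory neuron-like cluster 16 it was 71.3 CPM (55.1 to 90.9) in 56 cells with Prm1 and 248.4 CPM (212.7 to 288.4) in 61 without, beside 334.2 CPM in 48 control cells. In the dividing astroglia-like cluster 8 it was 556.1 CPM in 91 cells with Prm1 and 692.0 in 44 without, beside 790.4 in the control. In cluster 7 it was 375.9 CPM in 70 and 569.1 in 14, beside 891.1 in the control. In the interneuron lineage-like cluster 27 it was 101.5 CPM (60.1 to 160.4) in 19 and 265.0 (197.3 to 348.4) in 21, beside 358.4 in the control. Emx1-Cre cells lay between the sets in clusters 16 and 8, at 116.2 and 616.4 CPM. Their 657.9 CPM in cluster 7 was above both sets, and its interval overlaps that of cells without Prm1.

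The opposite order was found elsewhere. In oligodendrocyte precursor-like cells the level was 637.2 CPM (576.4 to 702.8) in 84 cells with Prm1 and 501.1 (463.0 to 541.5) in 174 without. It was 789 CPM in 66 control cells and 785.5 CPM in 277 Emx1-Cre cells of that class. In the replicating intermediate progenitor-like cluster 13 it was 106.9 CPM and 75.6, in cluster 19 99.2 and 70.8, and in the ependymal-like cluster 17 64.0 and 32.2. The controls were higher than both sets, at 194.9 CPM in cluster 13, 120.4 in cluster 19 and 151.6 in cluster 17. Emx1-Cre cells were under both sets in clusters 13 and 19, at 50.2 and 43.8 CPM, and between them in cluster 17, at 39.4 CPM. In cluster 19 the interval of cells with Prm1 (83.8 to 116.5) overlaps that of the control (97.7 to 146.7). It also overlaps, narrowly, that of cells without Prm1 (59.1 to 84.2). In cluster 13 Mki67 or Top2a was counted in 54.4% of cells with Prm1 and 76.9% of those without. In multipotent progenitor-like cells the intervals overlapped, at 450.5 CPM (408.0 to 496.3) and 508.0 (441.3 to 581.9), both under the 682.8 CPM (660.3 to 705.8) of 526 control cells. Cluster 4, with most of the astroglia-like cells, had 272.1 CPM (262.7 to 281.7) in 2034 cells with Prm1. Its 17 cells without had 315.8 CPM (211.5 to 453.6), which overlaps, and its 15 control cells 318.3. Depth differed between the 2 sets, with medians of 15732 and 10629 UMIs in cluster 16, and its part was not tested.

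Emx2, a gene related to Emx1 and chosen after its values were seen, was at 39.1 CPM in hGFAP-Cre, 30.7 in Emx1-Cre and 74.5 in control astroglia-like cells, so the Emx1-Cre cells with almost no Emx1 UMI still held Emx2.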
